A study of Homo sapiens with 6 samples.

Results

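Promoter accessibility was described for 59 genes of the cell cycle and DNA replication, of 20007 coding genes in the GENCODE release 44 annotation of hg38. The genes were taken from a list chosen with earlier results of these data known. Each gene was represented by its strongest ATAC-seq peak within 1000 bp of any of its annotated transcription start sites. ATAC-seq cuts and tags open chromatin with the Tn5 transposase, so a peak marks a stretch with more cut sites than its surroundings. SK-N-AS, spelled SKNAS in the labels, is a human neuroblastoma cell line. It was grown as xenografts in mice, and the cells assayed were expanded in culture from the tumors. Naïve cells came from tumors of mice given vehicle, and the cells named R1 and R2 came from tumors that had relapsed for the second time and were taken while the third cycle of indisulam was under way. Indisulam is a small molecule that recruits the splicing factor RBM39 to a ubiquitin ligase for degradation. The cultured cells themselves received no drug. There were 2 libraries in each of 3 groups, each library from 100000 cells, and the 6 peak lists were called separately. The methods give how many tumors of each arm were excised, but not how many of them gave each of the lines, and the sources used here do not say whether the libraries of a group were separate cultures or how many mouse host cells a culture still held, so p-values measure only the spread between these libraries.

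Depth differed between groups. The lists hold no read counts, and the background rate recovered from each list was, in tags per window, 2.29 and 1.35 for naïve, 7.94 and 5.43 for R1 and 0.85 and 0.899 for R2. All 59 members had a promoter peak in naïve 1 and in both R1 libraries, 56 had one in naïve 2, 55 in R2 1 and 56 in R2 2. Because depth moved with the group, levels are given as a promoter percentile, the rank of the best peak by its −log10 p among all 20007 coding promoters of the same library, with promoters without a peak at the bottom. Ranks in shallow lists come in steps, since the p-value of a peak is fixed by a whole number of tags. A difference of 1 tag was worth at most 4.35 percentile points in R2 1 and at most 0.495 in R1 1. As a check of the label, 6 to 7 of 7 adrenergic neuroblastoma markers and 6 to 7 of 7 mesenchymal-type markers had a promoter peak in every library. PTPRC and CD3E, which define blood cells, and ALB, which defines liver, had none in any library. These are bulk libraries, in which fewer cells with an open promoter and less opening per cell cannot be told apart.

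The cell cycle is driven by cyclins, which switch cyclin-dependent kinases on. D-type and E-type cyclins act in G1 and release the E2F factors from RB1, and E2F then switches on the genes of origin licensing and DNA synthesis. Cyclin A and cyclin B with CDK1 carry the cell into mitosis, where the aurora and polo-like kinases, kinesins and the spindle checkpoint act. Promoters of G1/S genes are known for sites of E2F, and those of G2/M genes for a CHR element (cell cycle genes homology region), often beside CCAAT boxes bound by NF-Y. Neuroblastoma is known for rapid proliferation and for frequent changes in the control of the G1/S step.

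The promoter sequences were examined first for these elements. Windows of 250 bases before to 50 bases after the start nearest the peak summit were read from hg38 and searched on both strands for TTTGGCGC, TTTCCCGC, TTTCGCGC and TTTGCCGC as E2F motifs, for TTTGAA and TTCGAA as CHR motifs, and for CCAAT. None of these letter strings contains another. The promoters below show the E2F type. They belong to E2F1, the transcription factor itself, to MCM3, a subunit of the replicative helicase, and to E2F3, another activator E2F. All were read in the direction of the gene, they end at the base before the start, and capitals mark the motifs found. A peak covered each of these stretches in all 6 libraries. E2F1 spans chr20:33686386-33686525 on the minus strand, MCM3 chr6:52284882-52285021 on the minus strand and E2F3 chr6:20401739-20401878 on the plus strand.
E2F1: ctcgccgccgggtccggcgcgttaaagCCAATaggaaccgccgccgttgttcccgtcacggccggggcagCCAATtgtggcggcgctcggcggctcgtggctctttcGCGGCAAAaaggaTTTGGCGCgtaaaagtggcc
MCM3: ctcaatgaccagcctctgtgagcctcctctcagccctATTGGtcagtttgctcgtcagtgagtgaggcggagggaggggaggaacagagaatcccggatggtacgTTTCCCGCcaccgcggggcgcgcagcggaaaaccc
E2F3: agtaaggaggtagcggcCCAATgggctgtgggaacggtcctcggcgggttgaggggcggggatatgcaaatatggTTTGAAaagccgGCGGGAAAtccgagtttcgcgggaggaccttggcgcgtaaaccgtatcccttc

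The next promoters show the G2/M type, and that of CCND3 without an E2F or CHR motif. CCNB2 encodes cyclin B2, lies at chr15:59104986-59105125 on the plus strand, and was chosen after its motifs were seen. CDC25C, the phosphatase that activates CDK1, had the highest mean percentile of the members and lies at chr5:138331873-138331934 on the minus strand. CCND3, which encodes cyclin D3, is at chr6:41941809-41941948 on the minus strand, before a start that lies inside the span of the gene's longer transcripts, and AURKA, which encodes aurora kinase A, is at chr20:56392338-56392370 on the minus strand. BUB1B, a spindle checkpoint kinase with a low percentile, is at chr15:40160883-40161022 on the plus strand. The stretches of CDC25C and AURKA stop short because exons begin there, and the CHR motifs of CDC25C, AURKA and BUB1B lie in the searched windows outside the stretches shown. A peak covered each of the 5 stretches in all libraries.
CCNB2: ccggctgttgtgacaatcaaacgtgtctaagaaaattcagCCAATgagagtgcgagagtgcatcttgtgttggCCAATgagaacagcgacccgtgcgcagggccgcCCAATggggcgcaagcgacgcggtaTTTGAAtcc
CDC25C: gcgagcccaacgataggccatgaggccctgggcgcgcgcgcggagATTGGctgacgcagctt
CCND3: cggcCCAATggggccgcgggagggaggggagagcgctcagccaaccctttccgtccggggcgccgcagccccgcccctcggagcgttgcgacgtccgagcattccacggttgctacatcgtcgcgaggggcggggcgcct
AURKA: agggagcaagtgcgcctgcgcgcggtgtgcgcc
BUB1B: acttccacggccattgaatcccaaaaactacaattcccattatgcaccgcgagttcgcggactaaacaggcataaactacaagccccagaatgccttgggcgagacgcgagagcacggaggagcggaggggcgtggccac

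An E2F motif stood in 18 of 59 members (30.5%) and in 4.55% of the 17577 coding promoters with a peak in at least 1 list. A CHR motif stood in 20 members (33.9%) against 10.1%, and CCAAT in 43 (72.9%) against 34.9%. The elements were spread unevenly over the roles. E2F motifs were found in 4 of 4 genes of RB and E2F, 9 of 13 of origin licensing and firing, 3 of 7 of DNA synthesis and 0 of 13 of the spindle group. They were found in only 1 of 11 G1 cyclins, kinases and inhibitors (9.09%), 1 of 8 genes of G2 and mitotic entry and 0 of 3 damage checkpoint kinases. CHR motifs were found in 10 of 13 of the spindle group and 5 of 8 of G2 and mitotic entry, and in 2 of 13 licensing genes. The other roles had them in 0 of 11 G1 genes, 1 of 4 of RB and E2F, 1 of 7 of DNA synthesis and 1 of 3 damage checkpoint kinases. Of the 13 spindle genes, 8 held both CHR and CCAAT. Levels were then compared with the motifs. Among members with a peak in all libraries, the median of the mean percentile was 77.4 for 16 promoters with an E2F motif and 76.5 for 38 without, and 76.5 for 19 with a CHR motif and 77.3 for 35 without. For CCAAT it was 77.9 over 41 promoters with the motif and 67.3 over 13 without. These are counts of letters, with no test, and a match does not show a bound factor.

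**Figure D1:**
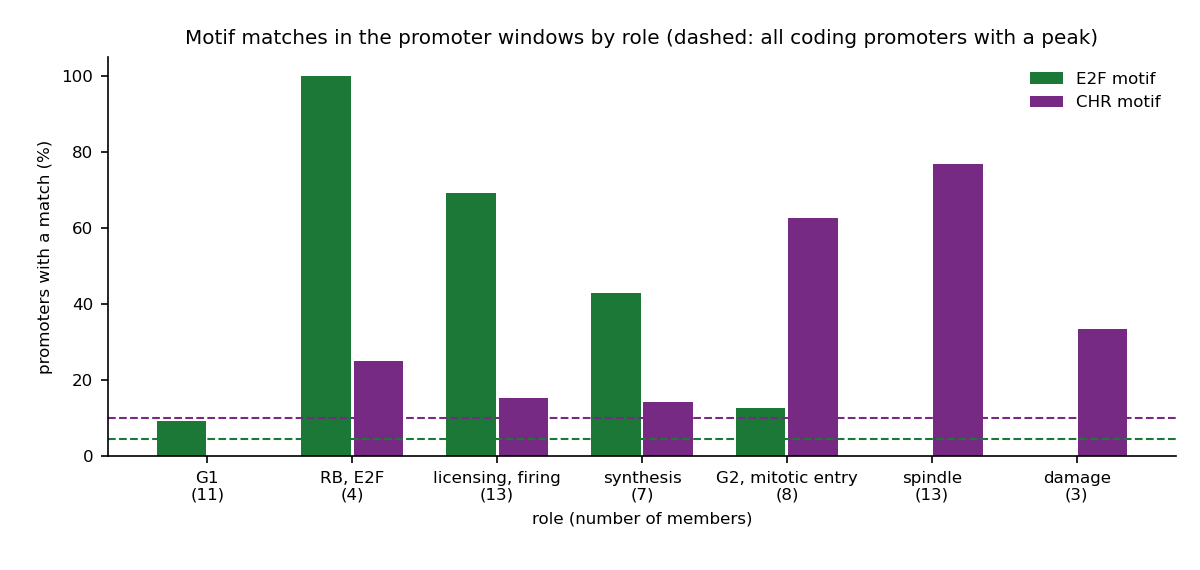
Bars give the percentage of members of each role (number of members in brackets) with an E2F or a CHR motif in the promoter window, and dashed lines the percentage of all coding promoters with a peak, 4.55% for E2F and 10.1% for CHR. E2F matches are most frequent in the RB, E2F and licensing groups, and stand at 9.09% in the G1 group and 0 in the spindle group. CHR matches reach 76.9% in the spindle group and are 0 in the G1 group.

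Across the members, promoters were open above the middle of the coding genome in every library. The median promoter percentile over members with a peak was 74.0 and 77.4 for naïve, 75.4 and 73.4 for R1 and 81.4 and 78.2 for R2, against 56.5 to 67.7 for all coding promoters with a peak. Over the 54 members with a peak in all libraries, the median of the mean percentile was 76.7, from 41.7 to 98.2. It was 69.2 over the 11925 coding genes with a peak in all 6 lists. Between 46 and 52 members lay above the 50th percentile in each library, and 7 to 15 above the 90th.

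**Figure D2:**
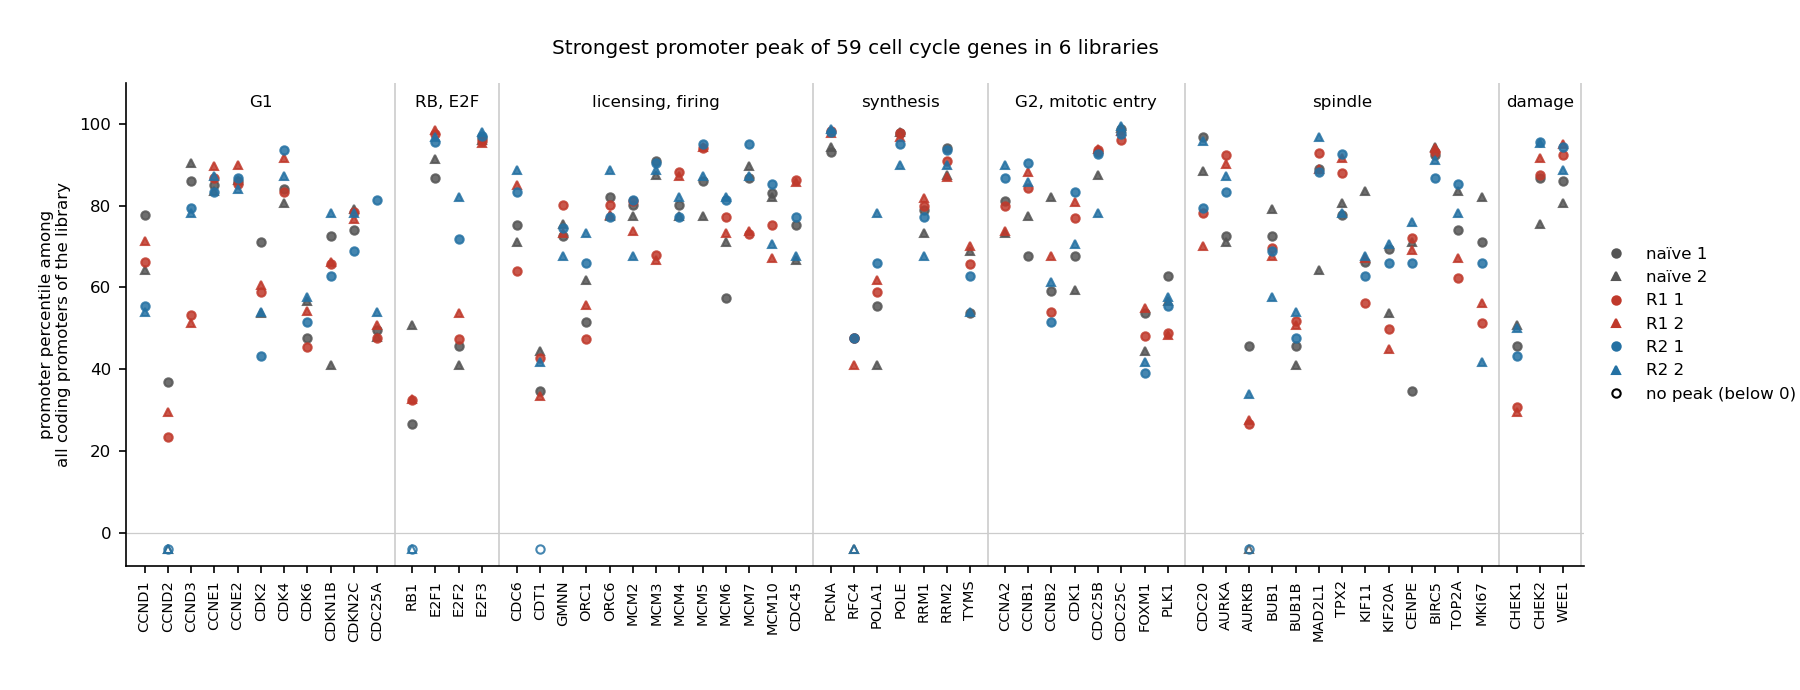
Each column is 1 of the 59 members, grouped by role. Circles and triangles give the promoter percentile of the first and second library of naïve (grey), R1 (red) and R2 (blue) cells, and open symbols below 0 mark a library with no peak. E2F1, E2F3, PCNA, POLE and CDC25C stay near the top in all libraries, and CCND3 and MCM3 show the R1 libraries below the rest.

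The regulators of E2F held both high and low promoters. E2F3 stood at 96.4 and 96.1 for naïve, 95.7 and 95.2 for R1 and 97.0 and 98.0 for R2. E2F1 followed with a mean of 94.4, whereas E2F2, another activator E2F, had a mean of 57.0. RB1, the repressor that holds E2F in check, stood at 26.7 and 50.9 for naïve and 32.6 and 32.9 for R1, and had no peak in either R2 library.

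Genes of DNA synthesis and nucleotide supply had a median of 83.5 over 6 members with complete data. PCNA, the sliding clamp of the polymerases, stood at 93.2 and 94.3 for naïve, 98.3 and 97.8 for R1 and 97.9 and 98.8 for R2. Both R1 and both R2 libraries thus lay above both naïve libraries. However, the best peak of PCNA moved by 6765 bp between lists, so different starts were compared. POLE, the catalytic subunit of the leading-strand polymerase, had a mean of 95.8. RRM2 and RRM1, the subunits of ribonucleotide reductase, had means of 90.5 and 76.5. TYMS, which makes thymidylate, and POLA1, which starts synthesis with primase, were lower at 62.6 and 60.3.

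Origin licensing and firing had a median of 77.6 over 12 members. The helicase subunits had means of 89.0 for MCM5, 84.2 for MCM7, 82.1 for MCM4, 82.0 for MCM3, 76.9 for MCM2 and 73.8 for MCM6. ORC6 and ORC1, of the origin recognition complex, had 80.5 and 59.3, and CDC6, which loads the helicase, had 77.9. MCM10 and CDC45, which act when the helicase is switched on, had 77.3 and 76.5, and GMNN, the inhibitor of licensing, had 74.0.

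The 10 G1 cyclins, kinases and inhibitors with complete data had a median of 69.0. CDK4, CCNE2 and CCNE1 led with means of 86.8, 86.4 and 86.0, and CDK4 ranged from 80.7 in naïve 2 to 93.5 in R2 1. CDKN2C, an inhibitor of CDK4 and CDK6, had 75.9 and CCND3 had 73.1. CCND1, CDKN1B, CDK2, CDC25A and CDK6 lay between 52.2 and 64.8.

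In G2 and mitotic entry the median was 77.0 over 8 members, from the highest to nearly the lowest level of all. CDC25C stood at 98.8 and 98.9 for naïve, 96.0 and 98.2 for R1 and 97.6 and 99.4 for R2. Its peak was shared in every list with FAM53C, and cannot be assigned to either gene. FOXM1, the transcription factor that drives G2/M genes, stood at 53.6 and 44.5 for naïve, 48.1 and 55.0 for R1 and 39.2 and 41.8 for R2. CDC25B, CCNB1, CCNA2, CDK1, CCNB2 and PLK1 had means of 89.8, 82.4, 80.8, 73.1, 62.7 and 55.0. The best peak of CDC25B was shared with CENPB in every list. It lay a median of 9486 bp from the start of the canonical transcript.

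The spindle group had a median of 72.2 over 12 members. BIRC5 (survivin), MAD2L1, TPX2, CDC20 and AURKA had means from 82.8 to 91.9, and TOP2A, BUB1, KIF11, CENPE, MKI67 and KIF20A from 59.1 to 75.1. BUB1B stood at 45.6 and 41.2 for naïve, 51.7 and 50.7 for R1 and 47.6 and 54 for R2. Among the damage checkpoint kinases, WEE1, which inhibits CDK1, and CHEK2 had means of 89.5 and 88.7. CHEK1, which acts on stalled replication forks, was the lowest member with complete data, at 45.6 and 50.9 for naïve, 30.9 and 29.5 for R1 and 43.2 and 50.1 for R2.

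5 members lacked a peak in at least 1 library, and their highest value in any library was 50.9, for RB1 in naïve 2. CCND2, which encodes cyclin D2, was listed in naïve 1 (37.0) and in R1 (23.5 and 29.5) and in no other library. RB1 was absent from both R2 lists. CDT1, a licensing factor, stood at 34.7 and 44.5 for naïve, 42.8 and 33.5 for R1 and 41.8 in R2 2, with no peak in R2 1. RFC4, a subunit of the clamp loader, stood at 47.6 in naïve 1, 47.8 and 41.0 in R1 and 47.6 in R2 1. AURKB, the aurora kinase of the chromosomal passenger complex, stood at 45.6 in naïve 1, 26.7 and 27.7 in R1 and 33.9 in R2 2. Such absences were set against depth. Scaled by the background rates from the tags in R1 1, CCND2 would have 4.93 and 5.21 tags in the R2 libraries and AURKB 5.67 in R2 1, under the lowest called peak of 6 tags. RB1 would have 7.17 and 7.58 and CDT1 9.96, above it. In naïve 2, where peaks began at 7, CCND2 would have 7.83 tags, AURKB 9.02 and RFC4 18.03. RFC4 would have 12.0 in R2 2, also above the lowest called peak.

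The peaks sat at annotated starts, though not always at that of the canonical transcript. Over 344 best peaks of members, the median distance from summit to nearest start was 81 bp, and 87.2% lay within 200 bp, against 72.7% for all coding genes. The median distance to the canonical start was 9486 bp for CDC25B, 3931 for CCND2, 2231 for CCND1, 1674 for CDKN2C and 1426 for KIF11. In 12 members the best peak was shared with another coding gene in every list that held it. They were ORC1, ORC6, MCM4, MCM7, CDC45, POLE, CDC25B, CDC25C, FOXM1, AURKA, KIF20A and CHEK2, and AURKA shared its peak with CSTF1. For 7 members (CCND1, CCND2, CDC45, CDT1, CHEK1, PCNA and TYMS) the best peak moved by over 500 bp between lists, so that different starts were compared.

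Which promoters differed between resistant and naïve cells was tested next. The 11925 coding genes with a peak in all 6 lists were ranked again among themselves, and limma was fitted to these tested percentiles over all libraries, with calls at an adjusted p under 0.05. No exact test of 2 libraries against 2 can reach 0.05. The 54 members that could be tested had to have a peak in the shallowest lists. Differences below are in percentile points of this second ranking. Its steps in the shallow lists are larger than those given above for all coding promoters. In R2 1, BUB1B, CDK6 and CCND1, with 11, 12 and 13 tags, had tested percentiles of 15.15, 20.83 and 26.52.

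In R1 against naïve cells, 4 of 54 members (7.41%) were called, against 6.68% of all genes tested. E2F1 and AURKA were higher, where 3.52% of all genes were called higher, and CCND3 and MCM3 were lower, where 3.16% were called lower. The share of members called was thus close to the background. The median difference was 2.15 over members and -0.71 over all genes, and 30 of 54 members lay above 0.

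CCND3 (ENSG00000112576.13, chromosome 6 from 41934934 to 42050357, minus strand), whose product activates CDK4 and CDK6, had tested percentiles of 76.4 and 84.1 for naïve, 24.1 and 21.1 for R1 and 65.4 and 63.6 for R2. Both R1 libraries lay far below the rest, and the groups did not overlap. The difference was -57.6 ± 10.6 (SE; limma adjusted p = 0.025). MCM3 (ENSG00000112118.20, chromosome 6 from 52264014 to 52284881, minus strand) had 84.7 and 79.0 for naïve, 46.9 and 44.8 for R1 and 84.1 and 81.0 for R2, so R1 stood apart while naïve and R2 overlapped. The difference was -35.9 ± 7.65 (SE; limma adjusted p = 0.0332).

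AURKA (ENSG00000087586.18, chromosome 20 from 56369389 to 56392337, minus strand), which matures the spindle poles, had 54.2 and 51.9 for naïve, 87.2 and 83.7 for R1 and 72.1 and 78.7 for R2. R2 lay between naïve and R1 without overlap. The R1 difference was 32.4 ± 7.38 (SE; limma adjusted p = 0.0382). E2F1 (ENSG00000101412.13, chromosome 20 from 33675477 to 33686385, minus strand) had 77.7 and 85.6 for naïve, 95.7 and 97.4 for R1 and 92.7 and 94.7 for R2, and all 4 resistant libraries were above both naïve ones. The R1 difference was 14.9 ± 3.33 (SE; limma adjusted p = 0.0366).

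**Figure D3:**
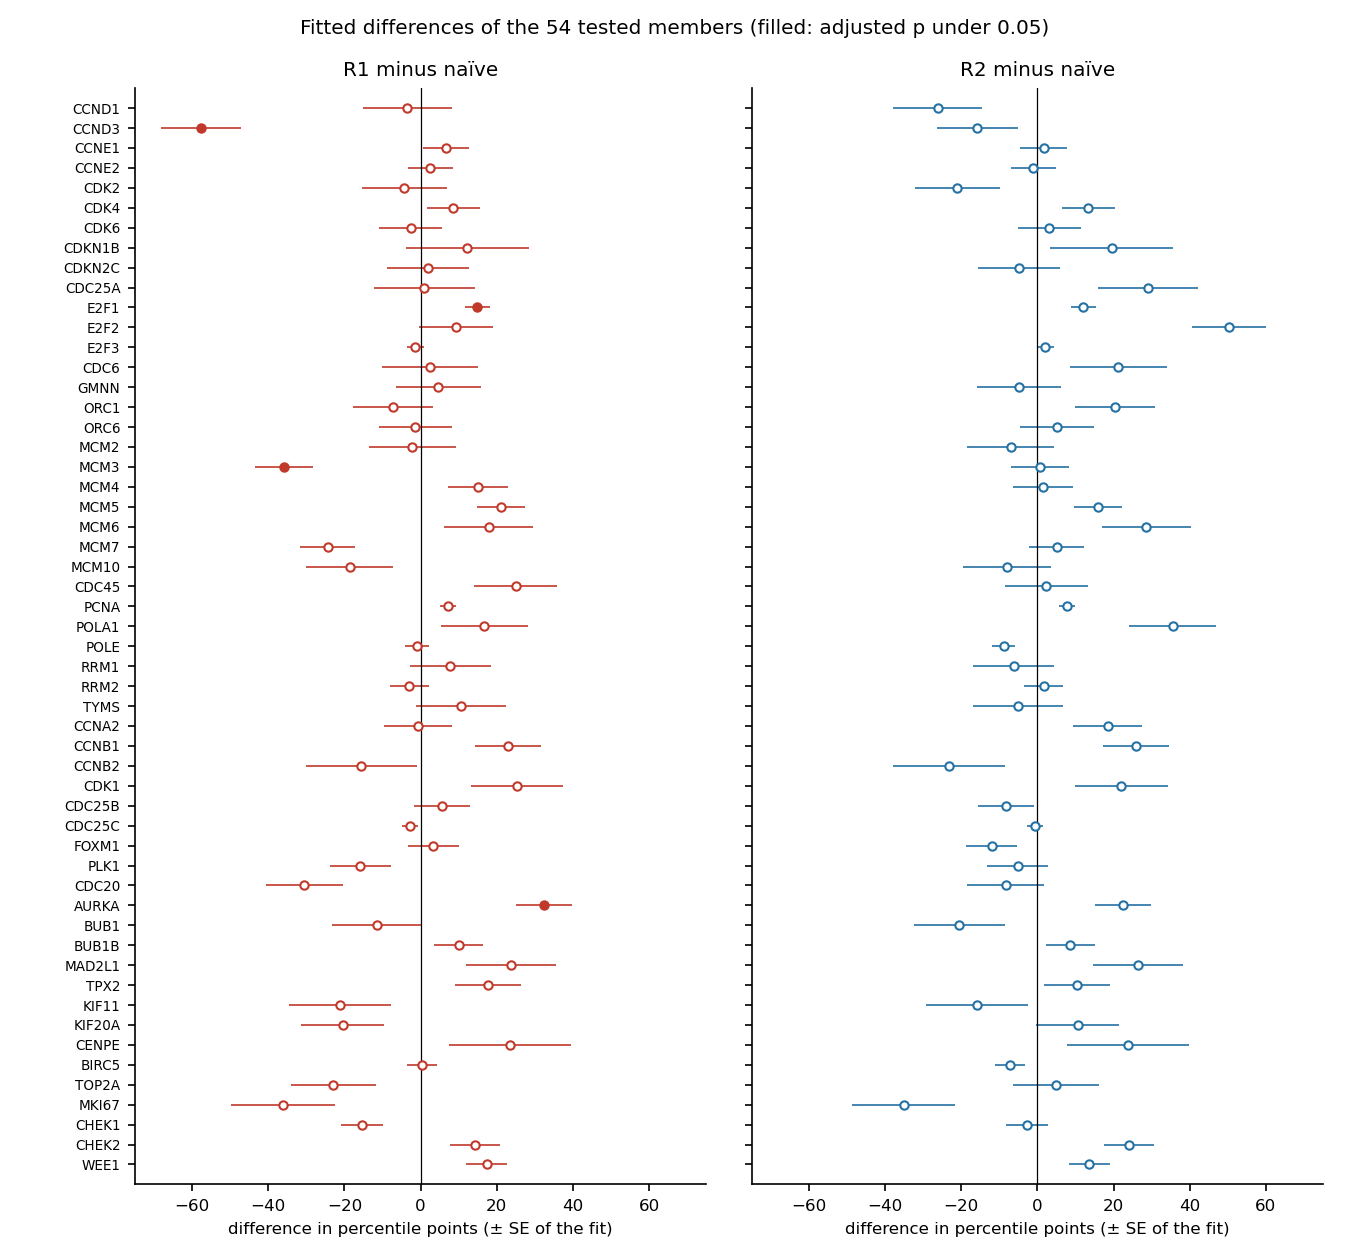
Points give the fitted difference of R1 (left) and R2 (right) from naïve cells in percentile points for each of the 54 tested members, with the standard error of the fit, and filled points have an adjusted p under 0.05. CCND3 and MCM3 lie lowest among the filled points at -57.6 and -35.9, E2F1 and AURKA are filled on the right of 0, and no R2 point is filled.

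The 5 largest differences in R1 also included MKI67 and CDC20, which were not called. MKI67, the proliferation marker Ki-67, had 51.7 and 70.2 for naïve, 21.3 and 28.2 for R1 and 43.5 and 8.17 for R2, and its R1 difference was -36.2 ± 13.6 (SE; limma adjusted p = 0.138). CDC20, an activator of the anaphase-promoting complex, had 94.4 and 80.8 for naïve, 63.6 and 50.5 for R1 and 65.4 and 93.1 for R2. Its R1 difference was -30.5 ± 10.1 (SE; limma adjusted p = 0.103). Of the helicase subunits, MCM3 alone was called. MCM7 differed by -24.4 ± 7.29, MCM2 by -2.18 ± 11.4, and MCM4, MCM6 and MCM5 by 15.1 ± 7.86, 17.9 ± 11.7 and 21.1 ± 6.40 (SE).

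The calls depended on the libraries. Without naïve 1, R1 1 or R1 2 no member was called, and without naïve 2 only E2F1 was, in fits where the lone library of an arm is assumed to vary like the other groups. All 4 members kept their direction in each of these fits.

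The promoters around the 4 called members were compared with them. In the 10 Mb bin of chromosome 6 from 40 to 50 Mb that holds CCND3, 96.9% of the 64 other tested promoters were lower in R1, with a median of -29.2, and 20 were called. In the next bin, from 50 to 60 Mb, the 18 neighbours of MCM3 had a median of -18.0, and 88.9% were lower. On chromosome 20, the 97 neighbours of E2F1 had a median of 23.9 and the 41 of AURKA 17.1, with 91.8 and 85.4% higher. When the bin median was taken off within each library, none of the 4 was called. CCND3 was then at -23.9 ± 10.4 (SE; limma adjusted p = 0.288), MCM3 at -14.0 ± 8.71 (adjusted p = 0.467), AURKA at 7.90 ± 8.38 (adjusted p = 0.693) and E2F1, in a reversed direction, at -16.8 ± 4.74 (adjusted p = 0.117). E2F1 stood near the upper end of the scale in R1, and 69 of its 97 neighbours had a rise as large as its own. The part that the surrounding region and the deeper R1 libraries have in these differences was not tested.

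**Figure D4:**
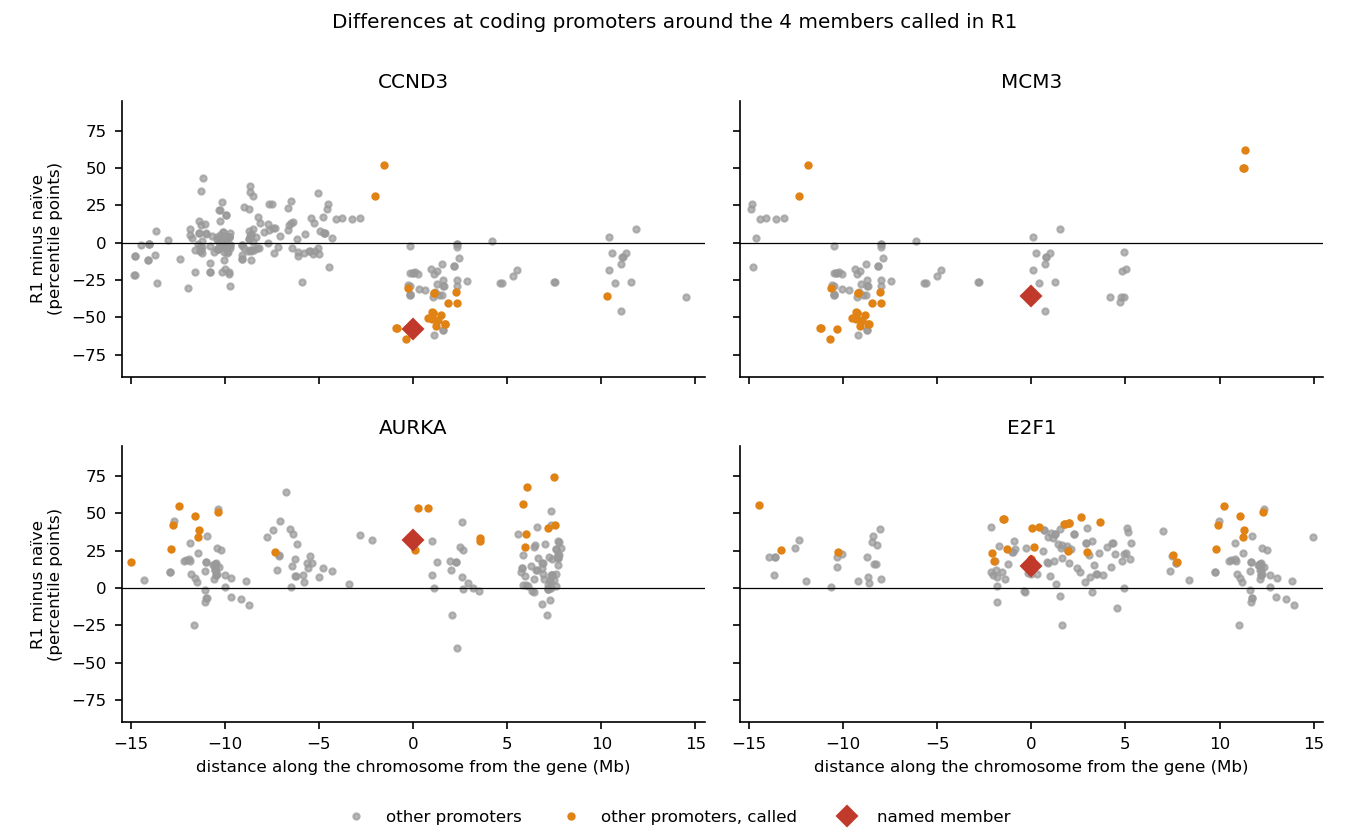
Each panel gives the R1 minus naïve difference in percentile points of tested coding promoters within 15 Mb of a called member (red diamond), against the distance from it along the chromosome, with called promoters in orange. Around CCND3, all 20 other promoters within 1 Mb lie below 0, whereas the 172 from 1 to 15 Mb on the side of lower coordinates have a median of 1.38. Around E2F1 and AURKA most promoters lie above 0 on both sides.

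Other members on chromosomes 6, 20 and 22 were described in the same way. On chromosome 6 from 20 to 30 Mb, away from CCND3 and MCM3, GMNN differed by 4.70 in R1 and E2F3 by -1.37. The other promoters of that bin had a median of -4.40. The 5 members on chromosome 20 were all higher in R1, by 7.22 for PCNA, 5.65 for CDC25B, 17.8 for TPX2, and the values of E2F1 and AURKA above. The 3 on chromosome 22 were also higher, by 24.97 for CDC45, 21.1 for MCM5 and 14.2 for CHEK2, and the other promoters of their bins had medians of 26.9, 22.6 and 21.4. For PCNA and CDC45 the best peak moved by over 500 bp between lists, so different starts were compared. Over all 54 members, 37 had the sign of the median of their bin in R1 and 35 in R2. No share over all genes tested stands beside these counts, so they are not read as a trait of the members.

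In R2 against naïve cells, limma called no member, and 0.621% of all genes. At an unadjusted p under 0.05 there were 12 of 54 members (22.2%), against 18.2% of all genes. The median difference was 2.21 over members and -0.078 over all genes. The largest difference was that of E2F2, which had tested percentiles of 13.6 and 8.60 for naïve, 16.3 and 24.6 for R1 and 52.7 and 70.1 for R2. Both R2 libraries stood far above the rest, and the difference was 50.3 ± 9.76 (SE; limma adjusted p = 0.0647). The neighbours of E2F2 on chromosome 1 from 20 to 30 Mb did not share it, with a median of -3.35 over 116 promoters, and 0 of them had as large a rise. On the scale of normal scores and on that of the log2 pileup, E2F2 passed, with limma adjusted p of 0.0372 and 0.035. Over the other alternatives it did not pass.

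POLA1 had 27.3 and 8.60 for naïve, 32.4 and 36.9 for R1 and 43.5 and 63.6 for R2. The groups did not overlap, and the R2 difference was 35.6 ± 11.4 (SE; limma adjusted p = 0.16). MCM6 had 30.0 and 51.9 for naïve, 62.1 and 55.6 for R1 and 68.8 and 70.1 for R2, and its R2 difference was 28.5 ± 11.7 (SE; limma adjusted p = 0.24). CDC25A, a phosphatase that activates CDK2, had 18.8 and 16.4 for naïve, 16.8 and 20.3 for R1 and 68.8 and 24.4 for R2. Its difference of 29.1 ± 13.2 (SE; limma adjusted p = 0.289) rested on R2 1, while R2 2 lay near the other libraries. MKI67 differed by -35.1 ± 13.6 (SE; limma adjusted p = 0.222), with R2 1 and R2 2 far apart.

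Between R1 and R2, limma called no member, and 1.08% of all genes. At an unadjusted p under 0.05 there were 10 of 54 members (18.5%), against 18.9% of all genes. CCND3 differed by -41.9 ± 10.6 (R1 minus R2, SE; limma adjusted p = 0.0914), E2F2 by -41.0 ± 9.76 (adjusted p = 0.0805) and MCM3 by -36.7 ± 7.65 (adjusted p = 0.0597). KIF20A, a kinesin of cytokinesis, had 49.0 and 24.3 for naïve, 19.3 and 13.2 for R1 and 43.5 and 50.9 for R2, so R1 was lowest and naïve and R2 overlapped. MCM7 had 77.7 and 82.5 for naïve, 55.1 and 56.3 for R1 and 91.7 and 78.7 for R2, with R1 again below the others. The R1 minus R2 differences were -31.0 ± 10.9 for KIF20A and -29.5 ± 7.29 for MCM7 (SE; limma adjusted p = 0.182 and 0.0863). With the R1 and R2 comparisons against naïve sharing the naïve libraries, their values for a member are not independent.

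With R1 and R2 averaged, E2F1 was the only member called higher, by 13.5 ± 2.88 (SE; limma adjusted p = 0.0478), where 1.84% of all genes were called higher, and it was not called without naïve 1 or without any of the R1 or R2 libraries. The largest differences in this comparison were -36.7 for CCND3, -35.7 for MKI67, 29.8 for E2F2, 27.4 for AURKA and 26.1 for POLA1, none of them called. All 4 resistant libraries lay above both naïve libraries for 12 of 54 members (22.2%), against 12.8% of all genes. These were E2F1, E2F2, MCM5, MCM6, PCNA, POLA1, CCNB1, CDK1, AURKA, BUB1B, CHEK2 and WEE1. CCNB1 and CDK1, which form the kinase that drives mitosis, had naïve values of 46.3 and 62.2 against resistant values of 74.0 to 84.1, and of 46.3 and 32.6 against 50.9 to 72.1. All 4 lay below both naïve libraries for CCND3, POLE, BUB1 and MKI67, 4 members (7.41%) against 14.3% of all genes. Some of these gaps were narrow. BUB1B stood at 15.15 in R2 1 against 13.62 in naïve 1, and CHEK2 at 79.02 in R1 1 against 77.74 in naïve 1. POLE stood at 96.06 in R1 1 against 96.16 in naïve 1. Of the 12, E2F1, PCNA and AURKA are on chromosome 20 and MCM5 and CHEK2 on chromosome 22, where neighbours were higher as well. For PCNA different starts were compared, as its best peak moved between lists. No test was made of these counts.

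A wider list of 89 other cell cycle and replication genes, chosen with earlier results of these data known, gave the setting. Over the 79 with a peak in all libraries, the median of the mean percentile was 77.6. In R1, 7 of 79 were called (8.86%, against 6.68% of all genes). ORC3, of the origin recognition complex, was higher by 47.5 ± 10.4 (SE; limma adjusted p = 0.0351), and TFDP1, the DNA-binding partner of the E2F factors, by 42.5 ± 6.26 (adjusted p = 0.019), along with LIN54 of the DREAM complex. NEK2, a centrosome kinase, was lower by -35.0 ± 8.53 (adjusted p = 0.0458), along with CENPF, CDKN2D and CDCA8. TFDP1 was the only gene of the list called in R2 (1.27%, against 0.621% of all genes), by 39.8 ± 6.26 (adjusted p = 0.0432), and its mean tested percentile was 49.6 ± 8.32 (SD, n = 2) for naïve, 92.1 ± 1.02 for R1 and 89.4 ± 0.39 for R2. All of the 29 neighbours of TFDP1 and all of the 25 of ORC3 had the sign of the gene in R1, with medians of 21.8 and 38.5. With the median of its bin taken off, none of the 7 genes was called in R1 by limma. ORC3 was then at 2.66 (adjusted p = 0.93) and NEK2 at -24.3 (adjusted p = 0.245), while TFDP1 turned to -9.67 in R1 (adjusted p = 0.554) and to -10.9 in R2 (adjusted p = 0.523), and CDKN2D turned from -17.0 to 16.5 in R1 (adjusted p = 0.155). Leaving out either R1 library ended the R1 calls of ORC3, TFDP1 and NEK2, as leaving out either naïve library did for ORC3 and NEK2, and leaving out any R1 or R2 library ended the R2 call of TFDP1.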

How the data were processed

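ATAC-seq peak lists of 6 libraries (naïve, R1 and R2, 2 each) were analysed. As the methods and the submitters' processing notes state, the authors aligned reads with BWA 0.7.12-r1039, marked duplicates with Picard 1.65, kept high-quality reads with SAMtools 1.3.1, left out mitochondrial reads, offset read ends for the Tn5 cut and called peaks per library with MACS2 2.2.7.1. The methods name hg19, whereas all coordinates lie within hg38 and the labels name both builds, so hg38 was used. Each deposited peak has a fold enrichment (a ratio over the background), a −log10 p-value and a −log10 q-value, an integer score made from the q-value, and the offset of its summit. The authors' q-value served only for a stricter filter, and the deposited score was not used.

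The background rate of each list was recovered from its folds and p-values, and gives relative depth, the reads not being used here. A gene's level was the percentile rank of the −log10 p of its best peak within 1000 bp of any GENCODE release 44 start, over 20007 coding genes, after 26 repeated symbols were dropped. Differences were fitted with limma 3.58.1 in R 4.3.3, with a trend of variance on mean, on ranks among genes with a peak in all 6 lists. Calls were made at a Benjamini-Hochberg adjusted p under 0.05 over all genes tested. Ranks were made with pandas 2.3.3 and NumPy 2.4.6 in Python 3.11.15. The fit was also run on simulated lists of independent counts, with changes set only in R1. These lists held no differences shared by a region and no spread between libraries beyond counting, so that run does not cover such differences.

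The members, gene lists and tests were chosen with earlier results of these data known. Named were all called members, the 3 highest and 3 lowest, the 5 largest differences in each comparison, members without a peak in a list, and, of the wider list, up to 3 called genes with the largest differences in each comparison, to which CDKN2D, LIN54 and CDCA8 were added after their values were seen. Alternatives were the start used, the distance, the q threshold, the genes ranked, the scale, the variance model, 10 Mb bin medians (bins of at least 10 genes), a replicate block and leaving out each library. Deviations of same-numbered libraries from their group means had correlations between -0.0196 and 0.065. These values do not show whether the libraries were made in pairs.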

Additional observations from a re-analysis of the deposited data

Results flagged for a closer look

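CENPF, a kinetochore protein gene of the wider cell cycle list, was flagged because R1 and R2 differed from each other by a direct test. Its mean tested percentile was 92.6 ± 0.45 (SD, n = 2) for naïve, 57.8 ± 5.33 for R1 and 92.0 ± 7.45 for R2. The R1 minus R2 difference was -34.24 percentile points (SE 5.58; limma adjusted p = 0.0381). Of the 33 other promoters of its 10 Mb bin, 66.7% differed in the same direction, with a median of -5.34, and 0 had as large a difference. With the bin median taken off, the difference was -32.8 ± 7.30 (SE; limma adjusted p = 0.0886). Leaving out any of the 6 libraries also ended the call, with adjusted p from 0.0579 to 0.117. Its cause was not tested.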

How the results depend on the processing

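The median of the mean percentile of the members (76.7) and the number with a peak in all libraries (54) stayed between 76.1 and 78.8 and between 53 and 55 under the alternatives tried for them, 76.3 to 78.2 and 54 to 55 with each library left out. The number of members called in R1 against naïve was 4. With every gene with a peak in at least 1 library ranked, and without the trend of variance on mean, it was 3. It was 8 with array weights and 1 with bin medians subtracted, where RRM2 was called, and between 0 and 5 with a library left out. In R2 against naïve the count was 0, and 1 (E2F2) with normal scores or with the log2 pileup, and 0 with any library left out. Between R1 and R2 it was 0, but 3 when every gene with a peak in at least 1 library was ranked, 2 with the log2 pileup and 1 with array weights, and 0 with any library left out. For the mean of R1 and R2 the count was 1. It was also 1 without the trend of variance on mean, but the member called there was lower, and so not E2F1. It was 2 when every gene was ranked and with normal scores, 3 with the log2 pileup, 0 with array weights, with bin medians subtracted and with summits required within 1000 bp of a start, and between 0 and 1 with a library left out. The summit rule was chosen after seeing the data. Over all genes tested, the calls ranged over all alternatives from 0 to 1588 in R1 against naïve (797 as reported), from 0 to 248 in R2 against naïve (74), from 0 to 1060 between R1 and R2 (129) and from 0 to 927 for the mean of R1 and R2 (348). The cause of these changes was not tested.

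Of 29 named differences, 22 of members and 7 of the wider list, under 18 alternatives each (522 values), 517 kept their direction. The exceptions came with bin medians subtracted. They were E2F1, at -16.8 against naïve for R1 and -16.2 for the mean of R1 and R2, and TFDP1, at -9.67 for R1, -10.9 for R2 and -10.3 for their mean. CCND3, MCM3 and AURKA were called in 13 of 18 alternatives in R1, E2F1 in 12, with adjusted p from 0.00496 to 0.288, from 0.0134 to 0.467, from 0.017 to 0.693 and from 0.0136 to 0.243. E2F1 for the mean of R1 and R2 was called in 8, with adjusted p from 0.044 to 0.174. Of the wider list, TFDP1 was called in 15 of 18 in R1 and 9 in R2, ORC3 in 13 and NEK2 in 10 in R1. With the replicate block the members called remained 4, 0, 0 and 1 in number, and all genes called in R1 went from 797 to 775. Peaks began at 6 tags in R2, over background rates of 0.85 and 0.899, and at 18 in R1 1, over a rate of 7.94. Relative to background, the lowest called peaks thus stood higher in R2. The effect of depth on the low promoters was not tested.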
